A study of Mus musculus with 6 samples.

Results

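The proximal tubule reabsorbs most of what the glomerulus filters, and its transport and enzyme genes are described here in preparations of isolated glomeruli. The members are 39 transporters, brush border enzymes and metabolic genes of this segment, taken as the genes whose array annotation symbol stands on a fixed list. Of the 39, 38 had a probe set named for them alone, 67 probe sets in all, and they are 38 of the 18193 genes that had one. Ggt1 had none named for it. All 38 passed the filter on low values, and 37 of them also by the mean log2 level of the wild-type arrays alone, the exception being Cyp27b1. RNA came from glomeruli isolated with magnetic beads from the kidneys of female mice aged 6 weeks, 1 Affymetrix array per mouse.

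In the 3 Vhl-deleted mice a Cre recombinase driven by the podocin promoter, which is active in podocytes, had excised a floxed von Hippel-Lindau gene (Vhl), part of the ubiquitin ligase that marks hypoxia-inducible factors for destruction. These mice had been chosen for urinary albumin no higher than the average of wild-type littermates, and the study's design places that urine test at 4 weeks. The 3 control mice were littermates labelled wild type. The parents are described as homozygous for the floxed allele, and the sources used here do not say whether the controls carried it. Values are MAS5 signals, linear values with one entry for each probe set and array, set by the authors to a trimmed mean of 500 on each array. A change below is the difference between group means of log2(signal + 28), Vhl-deleted minus wild-type, with its standard error (SE) and n = 3 arrays in each group; so few arrays limit the precision throughout.

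Cells of the proximal tubule take up filtered protein by endocytosis, and glucose, phosphate, amino acids and organic anions through transporters of the brush border and of the basolateral side. They also make glucose and break down amino acids, and the transcription factors HNF4A and HNF1 are known to drive many of these genes. Glomeruli prepared with magnetic beads are known to bring along some tubule fragments. In bulk RNA of this kind, fewer tubule cells and less tubule RNA per cell cannot be told apart.

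The 250 bases upstream of the annotated start are shown for 5 members, from RefSeq (GRCm38.p6, the table's build). Of the 38 members, 33 had an entry there. Capitals mark GTTAAT, a half-site of HNF1 factors, or CAAAGTCCA, a core of HNF4A sites, on either strand (ATTAAC and TGGACTTTG in reverse). These letter strings do not overlap each other in the sequences shown. Miox, Slc34a1 and G6pc are shown for the first string and Slc3a1 for the second. Cyp4b1 is shown as the member that was nearly level over the 6 arrays. It holds neither string, as do most of the 33 members, among them Lrp2, Cubn and Fbp1, which did differ between arrays.
Miox, chr15:89334223-89334472, strand plus: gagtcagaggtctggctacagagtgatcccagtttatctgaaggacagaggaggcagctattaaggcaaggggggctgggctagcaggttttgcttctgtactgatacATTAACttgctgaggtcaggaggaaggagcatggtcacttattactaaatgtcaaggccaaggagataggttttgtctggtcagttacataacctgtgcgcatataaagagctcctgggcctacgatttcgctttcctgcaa
Slc34a1, chr13:55399398-55399647, strand plus: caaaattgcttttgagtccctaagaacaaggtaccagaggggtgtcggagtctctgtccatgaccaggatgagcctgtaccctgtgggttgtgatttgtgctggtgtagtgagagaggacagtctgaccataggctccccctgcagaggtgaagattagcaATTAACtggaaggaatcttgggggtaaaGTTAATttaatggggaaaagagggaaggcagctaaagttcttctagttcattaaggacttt
G6pc, chr11:101367466-101367715, strand plus: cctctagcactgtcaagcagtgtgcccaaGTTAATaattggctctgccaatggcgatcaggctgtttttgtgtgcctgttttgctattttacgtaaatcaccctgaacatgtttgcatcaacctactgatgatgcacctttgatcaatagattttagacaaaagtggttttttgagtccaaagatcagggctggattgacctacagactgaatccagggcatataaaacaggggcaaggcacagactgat
Slc3a1, chr17:85028097-85028346, strand plus: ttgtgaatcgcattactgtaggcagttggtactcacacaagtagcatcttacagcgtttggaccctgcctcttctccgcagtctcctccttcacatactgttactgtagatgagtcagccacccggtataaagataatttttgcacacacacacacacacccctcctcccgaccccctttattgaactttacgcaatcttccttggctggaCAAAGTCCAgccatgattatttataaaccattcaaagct
Cyp4b1, chr4:115647722-115647971, strand minus: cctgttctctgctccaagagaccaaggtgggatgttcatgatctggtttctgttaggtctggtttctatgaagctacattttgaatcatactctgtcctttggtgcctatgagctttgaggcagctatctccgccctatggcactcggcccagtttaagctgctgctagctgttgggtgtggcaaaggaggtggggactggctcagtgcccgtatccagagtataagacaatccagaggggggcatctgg
GTTAAT was found upstream of 8 of 33 members (24.2%; Acsm2, G6pc, Hnf4a, Miox, Pck1, Slc22a6, Slc22a8 and Slc34a1) and of 7.49% of the 27025 genes in the table. CAAAGTCCA was found upstream of 1 of the 33 (3.03%) and of 0.451% of all genes. These counts describe letters in a window and say nothing of binding. Any link between these letters and the differences between arrays was not tested.

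The comparison asked whether proximal tubule transcripts differed between glomeruli with and without Vhl in podocytes. None of the 38 members passed limma's test (Benjamini-Hochberg adjustment over all 11159 genes tested, threshold 0.05), where 0.0807% of all genes passed, 8 higher and 1 lower. An unadjusted p under 0.05 was found for 0 of 38 members and for 4.92% of all genes. The members' adjusted p-values ran between 0.944 and 0.996. All 38 had a positive log2 change, between 0.019 and 1.37 with a median of 0.57, while the median over all genes was 0.0043 and 50.9% of them had a positive change. In 0 of 38 members did the 3 arrays of one group lie beyond the 3 of the other, against 10.7% of all genes tested. The spread within groups was wide: the median residual SD was 0.95 (log2) for the members and 0.20 for all genes. The residual SD of 35 of 38 members was above the 95th percentile of all genes.

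That spread came from the same arrays in almost every member. Wild-type replicate 3 was the lowest of the 6 arrays for 36 of 38 members, against 27.5% of all genes. Vhl-deleted replicate 3 was the highest for 33 of 38, against 25.9% of all genes. In wild-type replicate 3 the median member stood at 22.3% of the mean of the other wild-type arrays. On the log2 scale its median distance from them was -2.07 over the members and 0.035 over all genes. In Vhl-deleted replicate 3 the median member was 1.83 times the mean of the other Vhl-deleted arrays, a median distance of 0.88 against 0.020 over all genes. The mean log2 level of the members was 11.35, 11.38 and 12.21 in Vhl-deleted replicates 1, 2 and 3, against 11.56, 11.89 and 9.79 in wild-type replicates 1, 2 and 3. Wild-type replicates 1 and 2 thus lay above Vhl-deleted replicates 1 and 2.

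**Figure D1:**
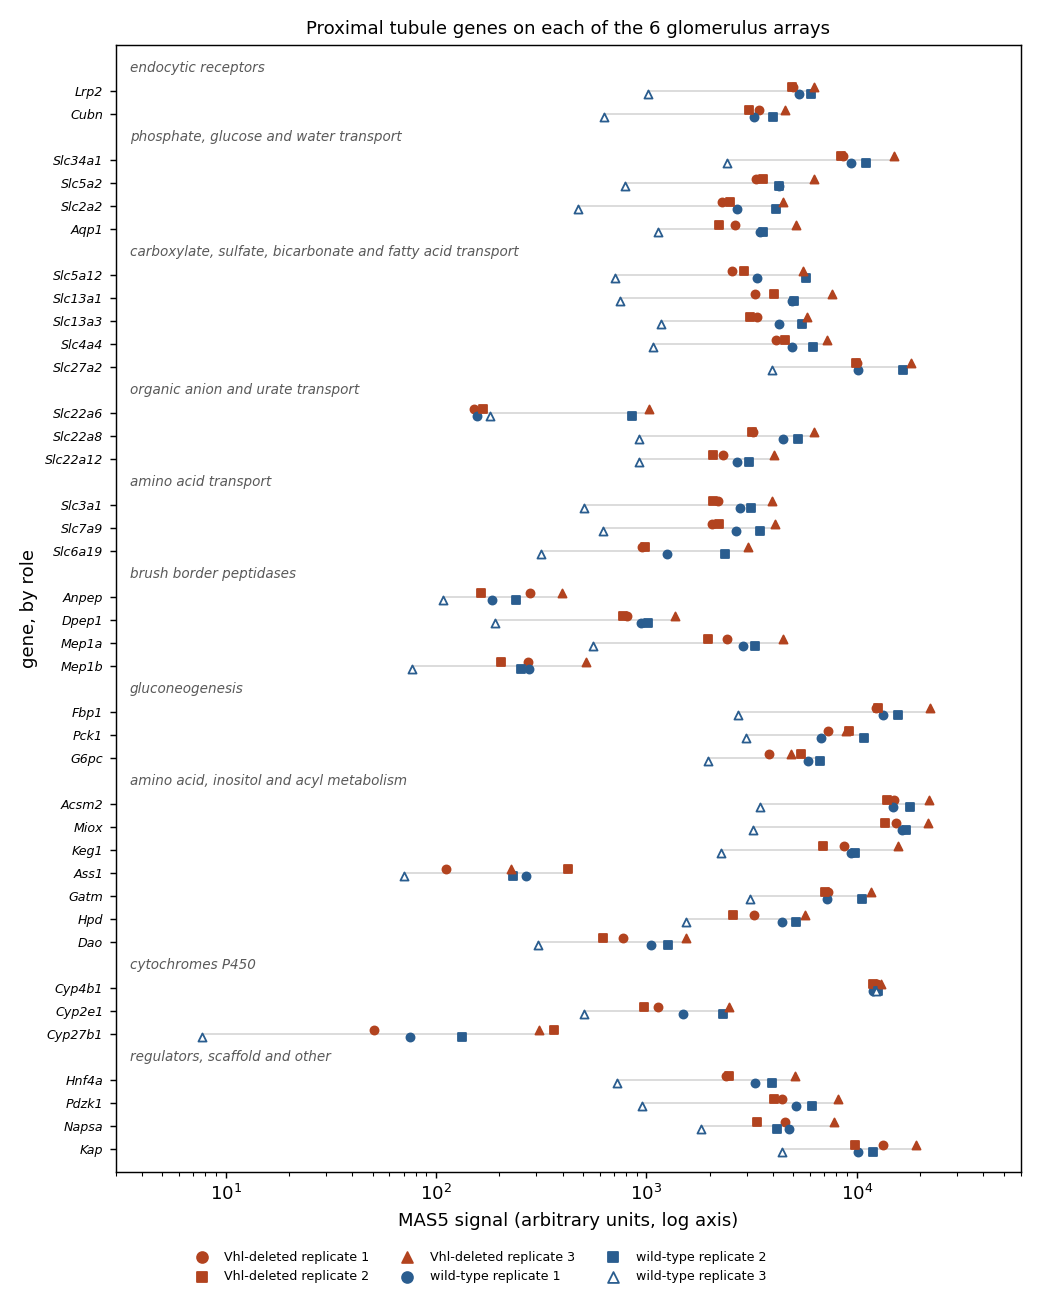
MAS5 signal (log axis) of the 38 proximal tubule genes, grouped by role, on the 3 Vhl-deleted arrays (filled red symbols, upper of each pair of rows) and the 3 wild-type arrays (blue symbols); the open triangle is wild-type replicate 3 and the grey line spans the 6 arrays. Wild-type replicate 3 lies lowest for 36 of 38 genes, and the Cyp4b1 points lie together.

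The direction of most members turned once wild-type replicate 3 was left out. Without Vhl-deleted replicate 3 alone, 31 of 38 members had a positive change and the median was 0.33, with 49.3% of all genes positive. Without wild-type replicate 3 alone, 11 of 38 members had a positive change and the median was -0.097, with 47.4% of all genes positive. Without replicate 3 of both groups, a setting added after the data were seen, 3 of 38 were positive and the median was -0.36, with 47.1% of all genes positive. In that fit of 4 arrays 22 of 38 members and 11.8% of all genes had an unadjusted p under 0.05. The arrays left out were the lowest and the highest for most members, so the count of 22 is no test of them. Over all genes, 0 members passed in that fit (lowest limma adjusted p = 0.0826, for Slc22a8), where 0.323% of all genes passed. The 3 members that stayed positive there were Cyp27b1 at 0.44, Kap at 0.046 and Anpep at 0.026. So by mean log2 level the members stood higher in the Vhl-deleted group over 6 arrays and mostly lower in it over those 4. By mean signal over 6 arrays 37 of 38 stood higher, the exception being G6pc at 4708 in Vhl-deleted and 4828 in wild-type arrays.

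**Figure D2:**
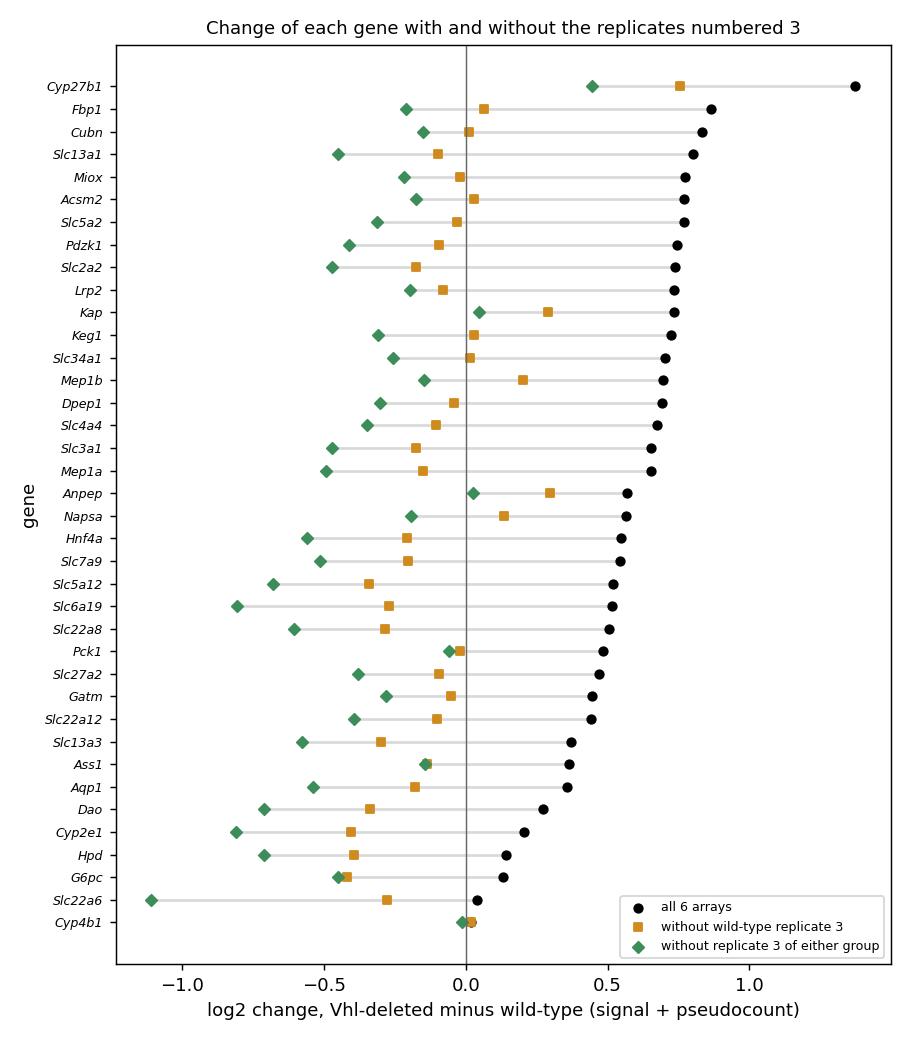
Log2 change, Vhl-deleted minus wild-type, of the 38 genes over all 6 arrays (black circles), without wild-type replicate 3 (orange squares) and without replicate 3 of both groups (green diamonds). All 38 black circles lie right of 0, and 3 of the 38 green diamonds do.

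The receptors that recover filtered protein varied over the arrays as most members did. Lrp2, which encodes megalin, had a signal of 4963, 4943 and 6282 in Vhl-deleted arrays 1 to 3, against 5318, 6057 and 1018 in wild-type arrays 1 to 3. Cubn, which encodes its partner cubilin, had 3437, 3062 and 4542 in Vhl-deleted arrays 1 to 3, against 3230.2, 4017 and 628 in wild-type arrays 1 to 3. In both genes wild-type replicate 3 lay far below the other 5 arrays, and the groups overlapped. That array stood at 17.9% of the other wild-type arrays for Lrp2 and at 17.3% for Cubn. The Lrp2 signal averaged 5396 ± 768 in Vhl-deleted arrays and 4131 ± 2721 in wild-type arrays (SD, n = 3 each), a change of 0.73 (SE 0.63, adjusted p = 0.944), and -0.082 without wild-type replicate 3. Cubn had a change of 0.83 (SE 0.64, adjusted p = 0.944), and of 0.011 without that array.

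All 4 transporters of phosphate, glucose and water were lowest in wild-type replicate 3 and highest in Vhl-deleted replicate 3. Slc34a1, the main sodium-phosphate cotransporter of the brush border, had a signal of 8599, 8407 and 14943 in Vhl-deleted arrays 1 to 3, against 9349, 11021 and 2417 in wild-type arrays 1 to 3. Slc5a2, the sodium-glucose cotransporter of the early proximal tubule, had 3309, 3573 and 6243 in Vhl-deleted arrays 1 to 3, against 4282, 4281 and 789.9 in wild-type arrays 1 to 3. The groups overlapped for both. Slc34a1 had a change of 0.70 (SE 0.56, adjusted p = 0.944) and Slc5a2 one of 0.77 (SE 0.64, adjusted p = 0.944); without wild-type replicate 3 these were 0.016 and -0.029. Slc2a2, the basolateral glucose exit transporter, stood in wild-type replicate 3 at 13.9% of the other wild-type arrays. The water channel gene Aqp1, also made in the thin descending limb and in some endothelia, stood there at 32.3%.

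Among transporters of carboxylates, sulfate, bicarbonate and fatty acids, Slc27a2, a fatty acid transport protein and acyl-CoA synthetase, had a signal of 10007, 9866 and 18012 in Vhl-deleted arrays 1 to 3, against 10162, 16495 and 3960.4 in wild-type arrays 1 to 3. The bicarbonate cotransporter gene Slc4a4 had 4113, 4545 and 7199 in Vhl-deleted arrays 1 to 3, against 4898, 6203 and 1069 in wild-type arrays 1 to 3. Wild-type replicate 3 was the lowest array for both. For Slc27a2, wild-type replicate 2 and Vhl-deleted replicate 3 stood above the other 4 arrays. Their changes were 0.47 (SE 0.51, adjusted p = 0.944) and 0.67 (SE 0.62, adjusted p = 0.944), and -0.096 and -0.10 without wild-type replicate 3. Slc5a12, a sodium-coupled lactate transporter, showed a like split, with wild-type replicate 2 at 1.71 times wild-type replicate 1 and Vhl-deleted replicate 3 at 2.02 times the mean of the other Vhl-deleted arrays. The sulfate transporter gene Slc13a1 and the dicarboxylate transporter gene Slc13a3 stood in wild-type replicate 3 at 14.9% and 24.1% of the other wild-type arrays.

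The organic anion transporters included Slc22a6, the member with the widest spread within groups over the 6 arrays (residual SD 1.35, log2). Slc22a8, a basolateral organic anion transporter, had a signal of 3199, 3158 and 6241 in Vhl-deleted arrays 1 to 3, against 4469, 5265 and 918 in wild-type arrays 1 to 3. Slc22a12, the urate transporter of the brush border, had 2317, 2077 and 4056 in Vhl-deleted arrays 1 to 3, against 2705, 3085 and 917 in wild-type arrays 1 to 3. In both, wild-type replicates 1 and 2 lay above Vhl-deleted replicates 1 and 2 and below Vhl-deleted replicate 3. Slc22a8 had a change of 0.51 (SE 0.65, adjusted p = 0.944), and of -0.61 without replicate 3 of both groups. Slc22a12 had a change of 0.44 (SE 0.47, adjusted p = 0.944), and of -0.39 in those 4 arrays. Slc22a6, the other basolateral organic anion transporter, had 151, 167 and 1024 in Vhl-deleted arrays 1 to 3, against 156, 856 and 180.0 in wild-type arrays 1 to 3; it is given after its values were seen. Vhl-deleted replicate 3 and wild-type replicate 2 were high for Slc22a6 and the other 4 arrays lay close together, so wild-type replicate 3 was not its lowest. Its change was 0.040 (SE 0.84, adjusted p = 0.996), and it was -0.28 without wild-type replicate 3 and -1.11 without replicate 3 of both groups.

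Some amino acid transporters form heteromers, and the members include both subunits of one. Slc3a1, the heavy subunit of the cystine and dibasic amino acid transporter, had a signal of 2188, 2077 and 3948 in Vhl-deleted arrays 1 to 3, against 2786, 3152 and 503 in wild-type arrays 1 to 3. Slc7a9, its light subunit, had 2041, 2208 and 4074 in Vhl-deleted arrays 1 to 3, against 2654, 3483 and 621 in wild-type arrays 1 to 3. Wild-type replicate 3 was the lowest and Vhl-deleted replicate 3 the highest array for both subunits. Wild-type replicate 3 stood at 17% of the other wild-type arrays for Slc3a1 and at 20.2% for Slc7a9, and the changes were 0.65 (SE 0.67, adjusted p = 0.944) and 0.54 (SE 0.62, adjusted p = 0.944). Slc6a19, the neutral amino acid transporter of the brush border, differed more between arrays of one group. Its signal in Vhl-deleted replicate 3 was 3.13 times the mean of the other Vhl-deleted arrays, and in wild-type replicate 2 it was 1.88 times that in wild-type replicate 1.

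Of the brush border peptidases, Mep1a, the alpha subunit of meprin, had a signal of 2419, 1951 and 4456 in Vhl-deleted arrays 1 to 3, against 2881, 3267 and 555 in wild-type arrays 1 to 3. Dpep1, a membrane dipeptidase, had 808, 771 and 1372 in Vhl-deleted arrays 1 to 3, against 938, 1022 and 190.2 in wild-type arrays 1 to 3. Both were highest in Vhl-deleted replicate 3 and lowest in wild-type replicate 3, with changes of 0.65 (SE 0.67, adjusted p = 0.944) and 0.69 (SE 0.59, adjusted p = 0.944). Mep1b, the beta subunit of meprin, had 274, 203 and 518 in Vhl-deleted arrays 1 to 3, against 276, 254 and 76.7 in wild-type arrays 1 to 3. Anpep, aminopeptidase N, had 278, 164 and 398 in Vhl-deleted arrays 1 to 3, against 184, 239.7 and 107 in wild-type arrays 1 to 3. Groups overlapped for both although these genes were among the 4 members of lowest p. Mep1b had a change of 0.70 (SE 0.48, adjusted p = 0.944) and Anpep one of 0.57 (SE 0.36, adjusted p = 0.944), and without wild-type replicate 3 they had 0.20 and 0.30. In that array Anpep still stood at 50.7% of the other wild-type arrays.

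Enzymes of glucose synthesis differed among themselves in Vhl-deleted replicate 3. Fbp1, fructose-1,6-bisphosphatase, had a signal of 12376, 12601 and 22248 in Vhl-deleted arrays 1 to 3, against 13280.3, 15749.5 and 2716 in wild-type arrays 1 to 3. Pck1, cytosolic phosphoenolpyruvate carboxykinase, had 7261, 9215 and 8884 in Vhl-deleted arrays 1 to 3, against 6733, 10797 and 2961 in wild-type arrays 1 to 3. Fbp1 was highest in Vhl-deleted replicate 3, whereas Pck1 was highest in wild-type replicate 2 and differed little between Vhl-deleted arrays. For Pck1 Vhl-deleted replicate 3 was 1.08 times the mean of the other Vhl-deleted arrays, and for G6pc, glucose-6-phosphatase, 1.05 times, against 1.78 times for Fbp1. The changes were 0.87 (SE 0.64, adjusted p = 0.944) for Fbp1, 0.49 (SE 0.42, adjusted p = 0.944) for Pck1 and 0.13 (SE 0.44, adjusted p = 0.969) for G6pc. Without wild-type replicate 3 they were 0.066, -0.020 and -0.42.

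All 7 enzymes of amino acid, inositol and acyl metabolism were lowest in wild-type replicate 3. Miox, which starts the breakdown of inositol and is a kidney-enriched enzyme, had a signal of 15359, 13569.7 and 21682 in Vhl-deleted arrays 1 to 3, against 16425, 17154 and 3193 in wild-type arrays 1 to 3. Acsm2, a medium-chain acyl-CoA synthetase, had 15056, 13854 and 21986 in Vhl-deleted arrays 1 to 3, against 14803, 17936 and 3459.6 in wild-type arrays 1 to 3. Wild-type replicate 3 stood at 19% and 21.1% of the other wild-type arrays for these genes. Miox had a change of 0.77 (SE 0.62, adjusted p = 0.944) and Acsm2 one of 0.77 (SE 0.59, adjusted p = 0.944), and without that array -0.022 and 0.028. In the same array Keg1 (kidney expressed gene 1) stood at 23.4%, Gatm, of creatine synthesis, at 35%, Hpd, of tyrosine breakdown, at 32.3%, and the D-amino acid oxidase gene Dao at 26.4%. Ass1, argininosuccinate synthase, stood at 28.2% there and was highest in Vhl-deleted replicate 2.

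The cytochromes P450 differed from each other. Cyp4b1 had a signal of 12433, 11952 and 13092 in Vhl-deleted arrays 1 to 3, against 11955, 12674 and 12329 in wild-type arrays 1 to 3. It was nearly level over the 6 arrays, with wild-type replicate 3 at 100% of the other wild-type arrays and a change of 0.019 (SE 0.089, adjusted p = 0.977); its sign turned with quantile normalization, to -0.073, and with median scaling, to -0.045. Cyp2e1, which oxidises ethanol and small solvents, had 1137, 978 and 2479.6 in Vhl-deleted arrays 1 to 3, against 1499, 2323 and 503 in wild-type arrays 1 to 3. Cyp2e1 was highest in Vhl-deleted replicate 3 and lowest in wild-type replicate 3 and had a change of 0.21 (SE 0.58, adjusted p = 0.963), and of -0.40 without wild-type replicate 3. Cyp27b1, which makes the active form of vitamin D, had 50.6, 364 and 308 in Vhl-deleted arrays 1 to 3, against 75.5, 133 and 7.72 in wild-type arrays 1 to 3. Vhl-deleted replicates 2 and 3 were high for Cyp27b1, Vhl-deleted replicate 1 lay below both higher wild-type arrays, and wild-type replicate 3 was near the bottom of the signal range. The wild-type mean of 71.9 lay under the filter's signal of 96.4, so the probe set passed through its Vhl-deleted arrays and the size of its change is uncertain. That change was 1.37 (SE 0.75, adjusted p = 0.944), but 0.85 with 4 times the pseudocount and between 0.76 and 2.11 as each array was left out in turn, the lowest without wild-type replicate 3 and the highest without Vhl-deleted replicate 1.

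Of the remaining members, Kap, which encodes a kidney androgen-regulated protein, had a signal of 13284, 9796 and 19016 in Vhl-deleted arrays 1 to 3, against 10168, 12002 and 4392 in wild-type arrays 1 to 3. Pdzk1, the scaffold that anchors brush border transporters, had 4388, 4019 and 8128 in Vhl-deleted arrays 1 to 3, against 5115, 6116 and 949 in wild-type arrays 1 to 3. Kap differed less between arrays, with wild-type replicate 3 at 39.6% of the other wild-type arrays against 16.9% for Pdzk1. Kap averaged 14032 ± 4655 in Vhl-deleted arrays and 8854 ± 3972 in wild-type arrays (SD, n = 3 each), with a change of 0.73 (SE 0.40, adjusted p = 0.944) and one of 0.29 without wild-type replicate 3. Pdzk1 had a change of 0.75 (SE 0.68, adjusted p = 0.944), and -0.095 without that array. Hnf4a, the transcription factor gene, stood in wild-type replicate 3 at 20.1% of the other wild-type arrays, close to the median member, and the aspartic protease gene Napsa at 40.4%.

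Cyp4b1 aside, members thus lay lower in wild-type replicate 3 than the mean of the other wild-type arrays, but not by a single ratio. For 26 of 38 that array lay between 10 and 30% of the other wild-type arrays and for 11, Cyp4b1 among them, above 30%. The remaining member, Cyp27b1, had a signal there below the pseudocount, so no ratio is given. Of the 67 probe sets of members 60 passed the filter, and 16 members had more than 1 of these. All 60 had a positive change, and 56 of them were lower by at least 1 (log2) in wild-type replicate 3 than the mean of the other wild-type arrays. Among the 7 probe sets that did not pass, changes went both ways, from -0.39 (Napsa) to 0.43 (Lrp2). Over all 11159 genes tested, 727 were lower there by at least 1 (log2), 35 of them members. By at least 2 (log2), 166 were lower there, and 21 of these were members. Wild-type replicate 2 lay above wild-type replicate 1 for 34 of 38 members, and the median ratio over all 38 was 1.18. On the log2 scale this median distance was 0.24 over the members and 0.0067 over all genes.

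A second list of 60 proximal tubule genes outside the members showed the same arrays. Of these, 51 were tested and 0 passed over all genes. The change was positive for all 51, at a median of 0.52, and for 11 without wild-type replicate 3. Wild-type replicate 3 was the lowest array for 47 of 51, and 21 of them were lower there by at least 2 (log2). Cltrn, the gene of collectrin, which helps place amino acid transporters in the brush border, had a signal of 17309.5, 15217 and 20332 in Vhl-deleted arrays 1 to 3, against 16483, 19078 and 5346 in wild-type arrays 1 to 3. Hao2, a peroxisomal hydroxyacid oxidase gene, had 16361, 14636 and 19368 in Vhl-deleted arrays 1 to 3, against 16038, 18189.8 and 4050.3 in wild-type arrays 1 to 3. Both were lowest in wild-type replicate 3, at 30.1% and 23.7% of the other wild-type arrays. Enpep, which encodes aminopeptidase A and is also made by podocytes, had 30760.2, 26777 and 27129.7 in Vhl-deleted arrays 1 to 3, against 25842, 28975 and 27300.2 in wild-type arrays 1 to 3. It was level, with that array at 99.6% of the other wild-type arrays. Akr1c21, an aldo-keto reductase gene, had 1019, 930.3 and 1240.4 in Vhl-deleted arrays 1 to 3, against 910.5, 487 and 763 in wild-type arrays 1 to 3, and its groups did not overlap. It had a change of 0.58 (SE 0.23, adjusted p = 0.944). Gldc, the glycine decarboxylase gene, and Xpnpep2, an aminopeptidase gene, did not overlap either. Their changes were 0.67 (SE 0.35, adjusted p = 0.944) and 0.41 (SE 0.25, adjusted p = 0.944). In all, 3 of the 51 did not overlap, against 10.7% of all genes tested. For Xpnpep2 the lowest Vhl-deleted signal was 123.9 and the highest wild-type signal 123.7, near the filter's signal of 96.4.

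**Figure D3:**
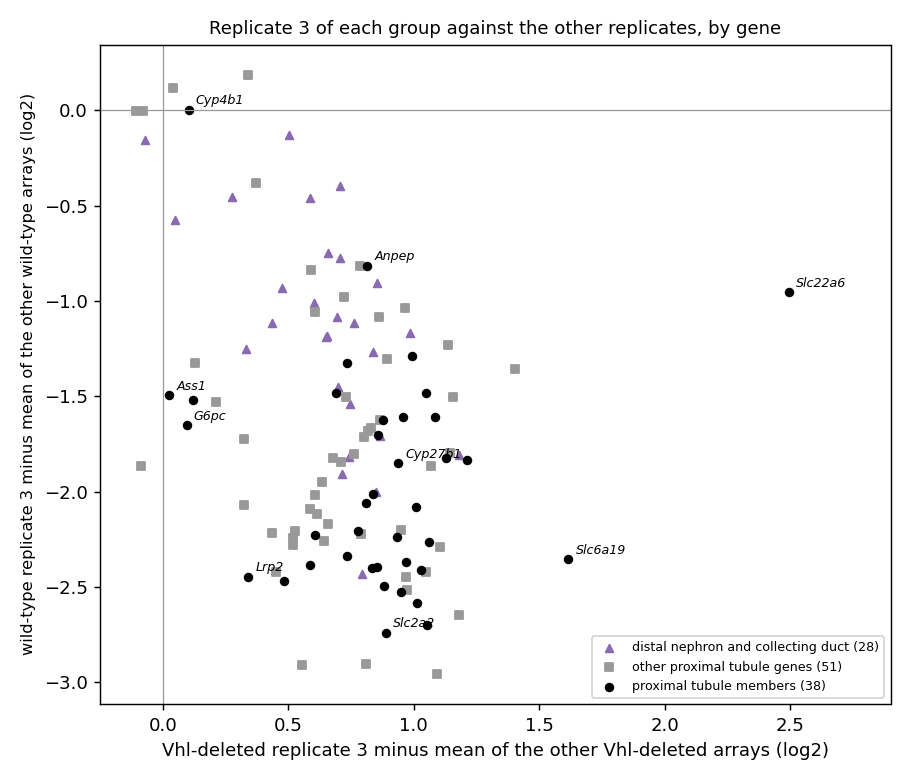
Each point is a gene; the horizontal axis gives Vhl-deleted replicate 3 minus the mean of the other Vhl-deleted arrays and the vertical axis wild-type replicate 3 minus the mean of the other wild-type arrays, both in log2 of signal + 28. The members (black) centre on 0.88 and -2.07 by their medians, the distal nephron genes (purple) on 0.70 and -1.12, and Cyp4b1 lies near 0 on both.

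Markers of other cells are given beside these values; their part in the results was not tested. Distal nephron and collecting duct genes (28 of 35 fixed were tested) had summed signals of 68937 to 110906 in Vhl-deleted arrays and 36907 to 90292 in wild-type arrays, and those of the members were 168117 to 285145 in Vhl-deleted arrays and 60805 to 231686 in wild-type arrays. Their median distance of wild-type replicate 3 from the other wild-type arrays was -1.12, against -2.07 for the members. Umod, uromodulin of the thick ascending limb, had a signal of 25263, 23590.4 and 30739 in Vhl-deleted arrays 1 to 3, against 26921, 27167 and 11354 in wild-type arrays 1 to 3. Slc12a1, the sodium-potassium-chloride cotransporter of that segment, stood in wild-type replicate 3 at 28.1% of the other wild-type arrays, and Slc12a3, the thiazide-sensitive cotransporter of the distal convoluted tubule, at 52.9%. Collecting duct genes differed there, with Aqp2 at 90.5% and Avpr2 at 86.9%, but Aqp3 at 39.8% and Scnn1g at 35.7%. The change was positive for 26 of the 28, the median being 0.31, and 1 of 28 stayed positive without replicate 3 of both groups.

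Podocyte markers ran the other way. Of the 29 fixed, 26 were tested, with summed signals of 172571 to 211007 in Vhl-deleted arrays and 190695 to 244086 in wild-type arrays, and wild-type replicate 3 was the highest array for 18 of 26. Nphs1, which encodes nephrin of the slit diaphragm, had a signal of 5719.5, 4827 and 5691 in Vhl-deleted arrays 1 to 3, against 5679, 6698 and 9142 in wild-type arrays 1 to 3. Podxl (podocalyxin) and Synpo (synaptopodin) stood in wild-type replicate 3 at 116% and 128% of the other wild-type arrays. No tested podocyte marker was at 0, the lowest signal being 59.7. The podocyte list had a median change of -0.16 over 6 arrays, -0.043 without wild-type replicate 3 and 0.053 without replicate 3 of both groups.

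The 21 endothelial markers had summed signals of 103299 to 116034 in Vhl-deleted arrays and 96536 to 115725 in wild-type arrays, and the 12 tested of 17 mesangial and smooth muscle markers 62709 to 69042 in Vhl-deleted arrays and 52441 to 63922 in wild-type arrays. In wild-type replicate 3 their medians lay 0.19 and 0.20 above the other wild-type arrays. Parietal epithelial markers (9 of 11 tested) lay lower there by at least 1 (log2) in 5 of 9 genes, against 727 of all 11159 genes. Pax8, which tubule cells also express, stood at 38.8% there. Leukocyte markers (11 of 18 tested) had a median of -0.33 there and a median change of 0.56. Without replicate 3 of both groups that leukocyte median was 0.25, while the members' was -0.36. None of the genes in these lists passed over all genes.

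**Figure D4:**
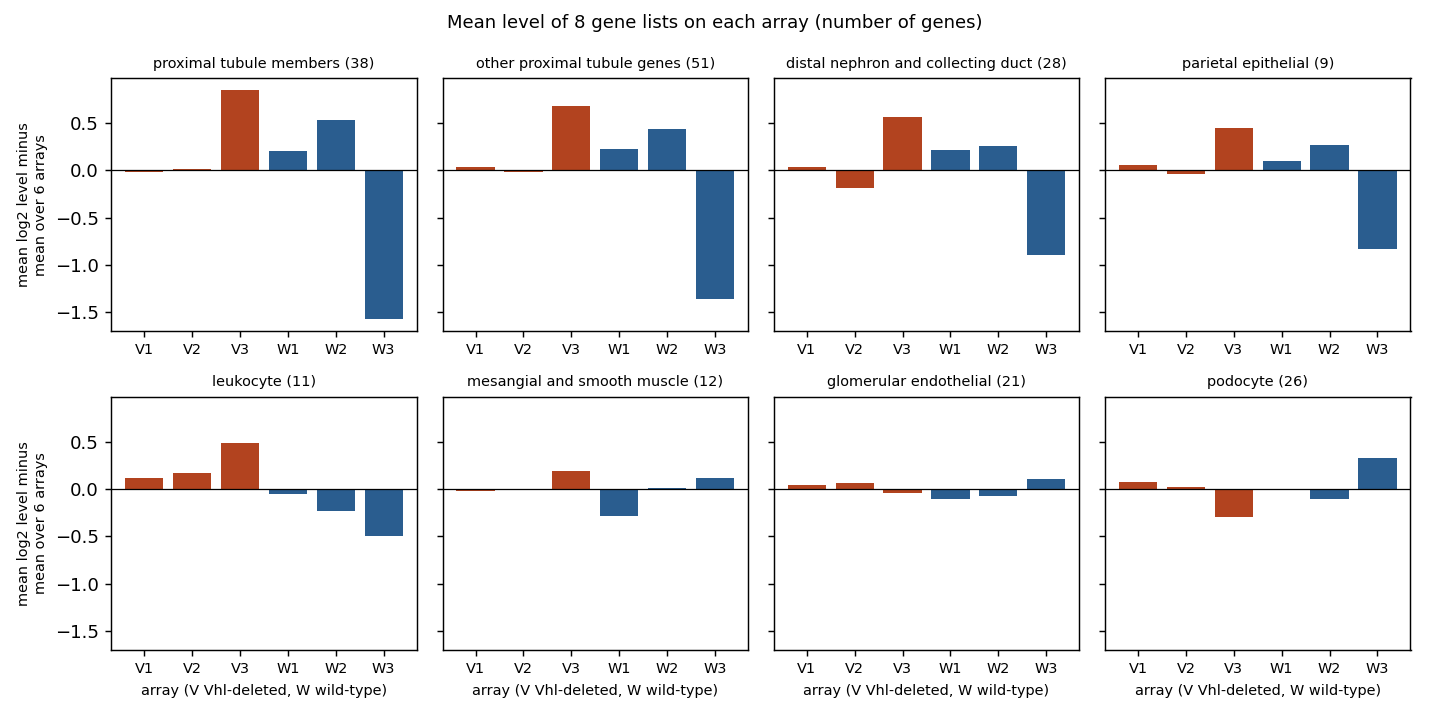
Mean log2 level of 8 gene lists on each array, as the difference from the list's mean over the 6 arrays, with Vhl-deleted arrays (V, red) left of wild-type arrays (W, blue) and the number of genes in parentheses. The proximal tubule bars are lowest in W3 and highest in V3, and the podocyte bar is highest in W3.

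Over the 6 arrays the median signal of all probe sets lay between 94.6 and 107.5. The ratio of 3' to 5' Gapdh control probe sets, a sign of RNA quality, was 0.829 in Vhl-deleted replicate 3 and 0.824 in wild-type replicate 3, the 2 highest, against 0.773 to 0.795 in the other 4 arrays. For actin the ratio was 1.34 and 1.30 in these arrays, against 1.30 to 1.38 in the other 4. Vhl itself had a signal of 611, 619 and 606 in Vhl-deleted arrays 1 to 3, against 809, 665 and 707 in wild-type arrays 1 to 3. The 3 Vhl-deleted arrays lay below the 3 wild-type arrays, with a change of -0.23 (SE 0.12, adjusted p = 0.944). Podocytes are only some of the cells of a glomerulus, and the position of the probes relative to the excised part is not known here, which limits this check of the labels.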

How the data were processed

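The 6 arrays, 3 Vhl-deleted and 3 wild-type, were grouped by their labels. The deposited values are intensities: MAS5 signals, per the submitters' processing notes, which give no version. Values in each array had been scaled to a mean of 500 after trimming 2% at each end. No pair of arrays was identical and none was left out. Genes were named from the platform annotation: of 45101 probe sets, 64 were controls, 34945 had 1 symbol, 932 several and 9160 none.

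Signals were taken as log2(signal + 28), 28 being the rounded 25th percentile of all values. Probe sets in the upper 50% by mean log2 value (a signal of about 96.4) were kept, and the brightest stood for its gene, which left 11159 genes. The test was limma 3.58.1 under R 4.3.3 (eBayes with an intensity trend), adjusted by Benjamini-Hochberg over all genes, at a threshold of 0.05. In 5 simulated versions of this comparison, each of 11159 genes with 200 changed, it recovered 17.6% of 1.5-fold, 51% of 2-fold and 88.2% of 4-fold changes. The changed genes were drawn from all genes, with noise independent between genes and arrays. The members had a median residual SD of 0.95, against 0.20 for all genes, so these shares do not describe recovery among the members.

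The members and lists were chosen with earlier results of these data known. Per-array signals are given for the 2 brightest members of each role, the 4 of lowest p and, from other lists, the 3 brightest and 3 of lowest p or the first 3 written. Slc22a6, G6pc and the collecting duct genes given were singled out after their values were seen. Alternatives changed the scaling, pseudocount, filter, probe set rule, variance model, array weights and a replicate block, and left out each array in turn. Array dates are not given in the sources used here.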

Additional observations from a re-analysis of the deposited data

How the results depend on the processing

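The count of members past the limma threshold was 0 under each of the 18 alternatives run (at an unadjusted p under 0.05 it was 0 in the fit as reported and 22 without replicate 3 of both groups, beside 4.92% and 11.8% of all genes). That count of 22 came from leaving out the arrays at the extremes for most members, so it is no test of them. The median change of the members and the number of positive members were 0.57 and 38; they were -0.092 and 14 with array weights, -0.097 and 11 without wild-type replicate 3, and -0.36 and 3 without replicate 3 of both groups, the last chosen after seeing the data. Leaving out each array in turn, the median ran between -0.097 and 1.01, the number of positive members between 11 and 38, and the count called stayed at 0. Of the 38 members, 37 were tested with the smaller pseudocount and 33 among the upper 30% of probe sets. The other alternatives kept this median between 0.51 and 0.57 and kept the sign of the distances of both replicates 3. Among genes given singly, changes of opposite sign were, with array weights, Slc5a2 -0.046, Slc27a2 -0.10, Slc4a4 -0.081, Slc22a8 -0.29, Slc22a12 -0.13, Slc7a9 -0.22, Slc3a1 -0.15, Mep1a -0.13, Dpep1 -0.022, Cyp2e1 -0.46, Pdzk1 -0.070, Slc22a6 -0.63, G6pc -0.37; with quantile normalization, Cyp4b1 -0.073; with median scaling, Cyp4b1 -0.045, Slc22a6 -0.016; and without replicate 3 of both groups, Lrp2 -0.20, Cubn -0.15, Slc34a1 -0.25, Slc5a2 -0.31, Slc27a2 -0.38, Slc4a4 -0.35, Slc22a8 -0.61, Slc22a12 -0.39, Slc7a9 -0.51, Slc3a1 -0.47, Mep1a -0.49, Dpep1 -0.30, Fbp1 -0.21, Pck1 -0.060, Miox -0.22, Acsm2 -0.17, Cyp4b1 -0.014, Cyp2e1 -0.81, Pdzk1 -0.41, Mep1b -0.15, Slc22a6 -1.11, G6pc -0.45. With each array left out in turn, those whose sign turned ran over Cyp2e1 -0.40 to 0.67, Cyp4b1 -0.015 to 0.051, Dpep1 -0.043 to 1.09, G6pc -0.42 to 0.45, Lrp2 -0.082 to 1.19, Mep1a -0.15 to 1.10, Miox -0.022 to 1.19, Pck1 -0.020 to 0.91, Pdzk1 -0.095 to 1.23, Slc22a12 -0.10 to 0.76, Slc22a6 -0.79 to 0.77, Slc22a8 -0.28 to 0.96, Slc27a2 -0.096 to 0.93, Slc3a1 -0.18 to 1.11, Slc4a4 -0.10 to 1.15, Slc5a2 -0.029 to 1.17, Slc7a9 -0.20 to 1.02. Deviations of same-numbered arrays from their group means had correlations of -0.020, -0.41 and -0.51 over all genes. These cannot tell whether the numbers pair the mice, since a shift in a single array also moves them. With the replicate number as a block the median of the members was 0.57, 0 members passed and 1 gene in all rose, against 8. With array weights 30 genes rose. The cause of these shifts was not tested, and 3 arrays per group limit every call.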
